A study of Quercus robur with 12 samples.

Results

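The interaction between root type and drought was examined for the miRNAs of the root tips of pedunculate oak (Quercus robur). It asks whether drought moved a miRNA to a different extent, or in another direction, in lateral roots than in taproots. All 75 miRNAs of the count table and all 12 libraries entered the fit, whereas some of the miRNAs named below were picked after their values were seen. Of the 75, 51 carry the name of a known miRNA and fall into 23 families (counts of members with the same number, such as miR166a to miR166f, were also summed), and 24 are named by their sequence. The interaction was the log2 fold change (log2FC) of drought in lateral roots minus that in taproots. A value above 0 therefore means a higher drought to control ratio in lateral roots, and a value below 0 a higher ratio in taproots.

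The 12 libraries came from meristematic zones, the growing root tips, of wild-type seedlings, with 3 libraries in each of 4 groups. The groups were taproots of watered controls (TR-CT), taproots under drought stress (TR-DS), lateral roots of watered controls (LR-CT) and lateral roots under drought stress (LR-DS). Drought followed 8 weeks of acclimatization with full watering and lasted 4 weeks, with soil moisture brought to 25% of that of the controls, and a replicate pooled 10 to 15 root tips. Seedlings had been raised in containers or sown directly as acorns, but the labels do not give this per library, so cultivation and drought cannot be told apart for single libraries. The table holds miRNAs only, hence no cell type markers against which to check the label of the tissue, and in such bulk samples fewer cells of a type and less RNA per cell cannot be told apart.

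Plant miRNAs guide Argonaute proteins to transcripts with near-perfect complementarity, which are then cleaved or kept from translation. In roots, miR160, miR167, miR390 and miR393 act on auxin signalling, miR164, miR166, miR171 and miR396 on the patterning and activity of meristems, and the pair miR156 and miR172 on the transition between ages of a plant. The taproot grows from the embryonic root, whereas lateral roots are founded later in tissue inside existing roots.

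The sequences below are those that the largest and the most instructive interaction values belong to. Bases 2 to 8, the seed, are in capitals. Sequence-named miRNAs are called by "seq-" and their first 6 bases, and were read from the names in the table. Those of known families come from the degradome queries in the supplement of the study, which hold 19 of the 23 families under the family name alone. A family can therefore have several forms that cannot be tied to a lettered member, whereas miR172 and miR2111 have a single member each.
miR172: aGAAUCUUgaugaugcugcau
miR2111: uAAUCUGCauccugaggucua
miR156, form 1: cGACAGAAgagagugagc
miR156, form 2: uGACAGAAgagagugagc
miR166, form 1: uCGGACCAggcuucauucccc
miR166, form 2: uCUCGGACcaggcuucauucc
miR171, form 1: cGAUGUUGgugagguucaauc
miR171, form 2: cGUGAUAUugauuuggcucuuc
miR171, form 3: uGUGAUAUugguacggcucguc
seq-CGUGAU: cGUGAUAUugguucggcucuuc
seq-CCGGUC, the 16-nt sequence: cCGGUCUGcucguccc
seq-ACUAUU: aCUAUUGUggagcaccugcuc
seq-UUUCAG: uUUCAGAAugagaggcaaguc
seq-CGCAGA: cGCAGAUUagcguggcaccauc
seq-CUUCUG: cUUCUGUUagcucuuaugga
Forms 2 and 3 of miR171 and seq-CGUGAU share the seed GUGAUAU, and both forms of miR156 share GACAGAA. The sequence seq-CUUCUG stands in the table under 2 names, seq-CUUCUG-1 and seq-CUUCUG-2, with separate counts.

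Total counts per library ranged from 160039 (LR-DS replicate 3) to 1267473, the factors that scale the libraries to each other (TMM) from 0.51 to 1.84, and every pair of replicates differed by more than sampling noise. Within lateral roots these factors were 1.82, 1.84 and 1.715 in LR-CT replicates 1 to 3, against 0.66, 0.84 and 0.94 in LR-DS. This scaling raised LR-DS levels relative to LR-CT. Lateral root groups that did not overlap after it can therefore overlap by library size alone. Taproots were more variable. The median SD of log2 CPM (a library's scaled count relative to its total, CPM, with a prior count of 2) over the 75 miRNAs was 1.07 in TR-CT and 1.45 in TR-DS, against 0.38 in LR-CT and 0.76 in LR-DS. The titles call the replicates biological and say no more about separate plants, so p-values measure the spread between these libraries.

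Before any comparison, 2 taproot libraries had to be set apart. In lateral roots, 11 miRNAs were higher in every LR-DS library than in every LR-CT library and 24 were lower, together 46.7% of the 75. The mean log2 CPM of the 11 minus that of the 24 was taken as a drought profile. A library's scale factor nearly cancels in this difference, but the choice of the 11 and the 24 rests on TMM-scaled values. By its construction it separated lateral roots, at -0.99, -1.29 and -1.25 for LR-CT against 3.24, 3.12 and 3.19 for LR-DS. The taproot libraries played no part in choosing these miRNAs, and their profile was -0.37, 0.18 and 3.44 for TR-CT against 3.96, 0.88 and 3.21 for TR-DS. In this difference TR-CT replicate 3 thus lay among the drought libraries, and TR-DS replicate 2 lay closer to the controls than to the other 2 TR-DS libraries. The 2 parts of the profile did not place TR-CT replicate 3 alike. Its mean over the 11 was 10.87, the highest of all libraries. Over the 24 it was 7.43, between the other TR-CT libraries (8.82 and 7.95) and TR-DS replicates 1 and 3 (6.86 and 6.73). TR-DS replicate 2 had 8.37 and 7.49. For miR166b, among the 24, both libraries stayed with their labels. All results below use the labels as given, and those that rest on these libraries are also given without both, an alternative chosen after their values were seen. As both were picked by how far they resembled drought or control, leaving them out widens the difference in this profile between TR-DS and TR-CT by construction, and with it those of many of its 35 miRNAs. Values without both are therefore descriptions of how far a result rests on these libraries, and not tests.

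**Figure D1:**
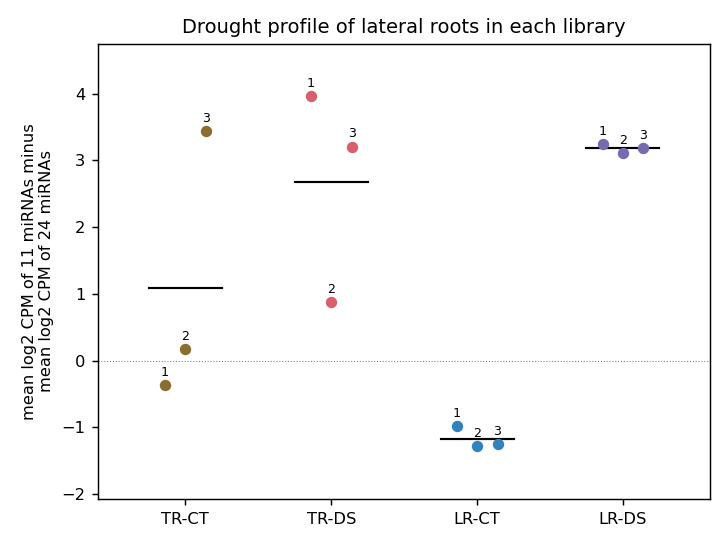
Drought profile of each library, the mean log2 CPM of 11 miRNAs minus that of 24 miRNAs (vertical axis), by group (horizontal axis), with replicate numbers beside the points and bars for group means. TR-CT replicate 3 (3.44) stands at the level of LR-DS, and TR-DS replicate 2 (0.88) stands below the other TR-DS libraries.

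Across the 75 miRNAs, none passed FDR 0.05 for the interaction in edgeR's quasi-likelihood F test with Benjamini-Hochberg adjustment (0% called, lowest FDR 0.0979). At an unadjusted p of at most 0.05 there were 5 miRNAs (6.67%), of which 4 (5.33%) lay below 0 and 1 (1.33%) above. These were miR166f, miR172a, miR156a, seq-ACUAUU and, as the one above 0, the 16-nt sequence. edgeR's likelihood ratio test called 3 at FDR 0.05 (miR156a, miR172a and miR166f) and DESeq2 called 1 (miR172a). The drought effects that enter the interaction did not pass either: 0 miRNAs in lateral roots (16, or 21.3%, at an unadjusted p of at most 0.05) and 0 in taproots (7, or 9.33%). Without both libraries set apart above, the interaction had 1 call (miR166f), and drought had 14 calls in lateral roots and 19 in taproots, where the rise follows in part from how the libraries were picked and is no result.

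The direction of drought was the same in both root types for 51 miRNAs by sign alone, 37 below 0 in both and 14 above 0 in both. Of the rest, 19 were below 0 in taproots and above 0 in lateral roots, and 5 had the reverse pattern. Only 1 miRNA (1.33%), miR166b, was separated without overlap in both root types, and it was lower under drought in both; 7 (9.33%) were separated in taproots. The interaction had a median of 0.33 with 44 values above 0 (58.7%). That median follows the scaling, since it was -0.92 with library size alone (17 above 0), -0.29 with RLE factors and -0.23 with TMM factors within each root type, so small values carry no direction of their own.

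**Figure D2:**
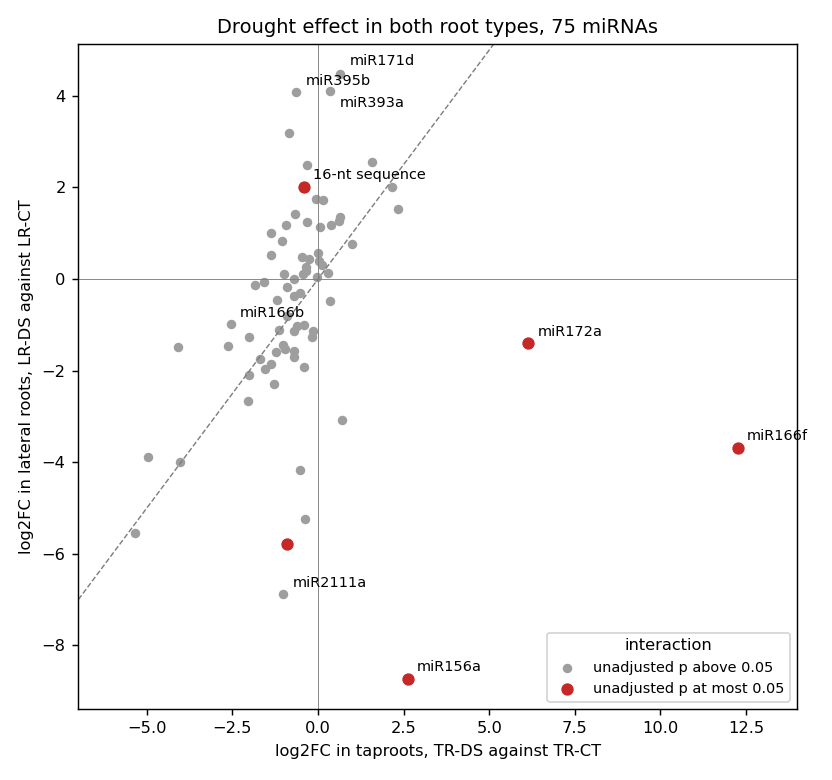
log2FC of drought in taproots (horizontal axis) and in lateral roots (vertical axis) for the 75 miRNAs, with the line of equal effects dashed and the 5 miRNAs at an unadjusted p of at most 0.05 for the interaction in red. miR172a and miR166f lie at 6.15 and 12.27 in taproots and below 0 in lateral roots, and the red point without a name is seq-ACUAUU.

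miR172a, which represses AP2-like transcription factors and marks the adult phase in Arabidopsis, was higher under drought in taproots and had the lowest p among families. The TR-CT libraries held 0, 1 and 0 counts of it, those of TR-DS 22, 8 and 43. The LR-CT libraries held 22, 13 and 21, those of LR-DS 0, 8 and 0. Every TR-DS library therefore lay above every TR-CT library, whereas in lateral roots the 8 counts of LR-DS replicate 2, a library scaled up by its factor, gave a log2 CPM of 3.76 that lay within the LR-CT range of 3.44 to 4.2. Summed over libraries, 73 counts in TR-DS against 1 in TR-CT gave an 80.3-fold ratio with an exact 95% interval of 14 to 3214, from counting error only. Against a floor of 3 counts per library, the mean in TR-DS was at least 8.60-fold higher than in TR-CT. In lateral roots, 56 counts in LR-CT against 8 in LR-DS gave a 2.16-fold lower level (1.02 to 5.25 from counting error only). The interaction was -7.55 (SE 2.25, 95% interval -12.35 to -2.75, unadjusted p = 0.00447, FDR = 0.168).

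The interaction of miR172a was as large without the libraries set apart. It was -7.60 without both (SE 2.20, FDR = 0.0812) and between -12.42 and -6.82 when any single library was left out, and its FDR over all alternatives ran from 0.00445 to 0.611. The effect in taproots was 6.15 (SE 1.77, FDR = 0.112) and that in lateral roots -1.40 (SE 1.40), the latter within its own error of 0. As miR172 has a single member, the family value was nearly the same, at -7.45 (SE 2.17, FDR = 0.164) over 47 families and sequence-named miRNAs.

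Sites for miR172 are shown because this family had the lowest p for the interaction. They are 21-base stretches of oak transcripts listed with it in the degradome results, with the bases opposite miRNA positions 2 to 8 in capitals. Transcripts Qrob_T0162660.2 and Qrob_T0402270.2 hold the same stretch.
Qrob_T0162660.2: cugcagcaucaucAGGAUUCu
Qrob_T0749650.2: uugcagcaucaucAGGAUUCu
Qrob_T0466780.2: uaucagcaucauuAUGAUUCa
Of 21 positions, 19 form Watson-Crick pairs in the former pair of sites and 15 in the last, with 6 of the 7 seed positions paired in each. The counts do not bear on whether these sites are used.

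**Figure D3:**
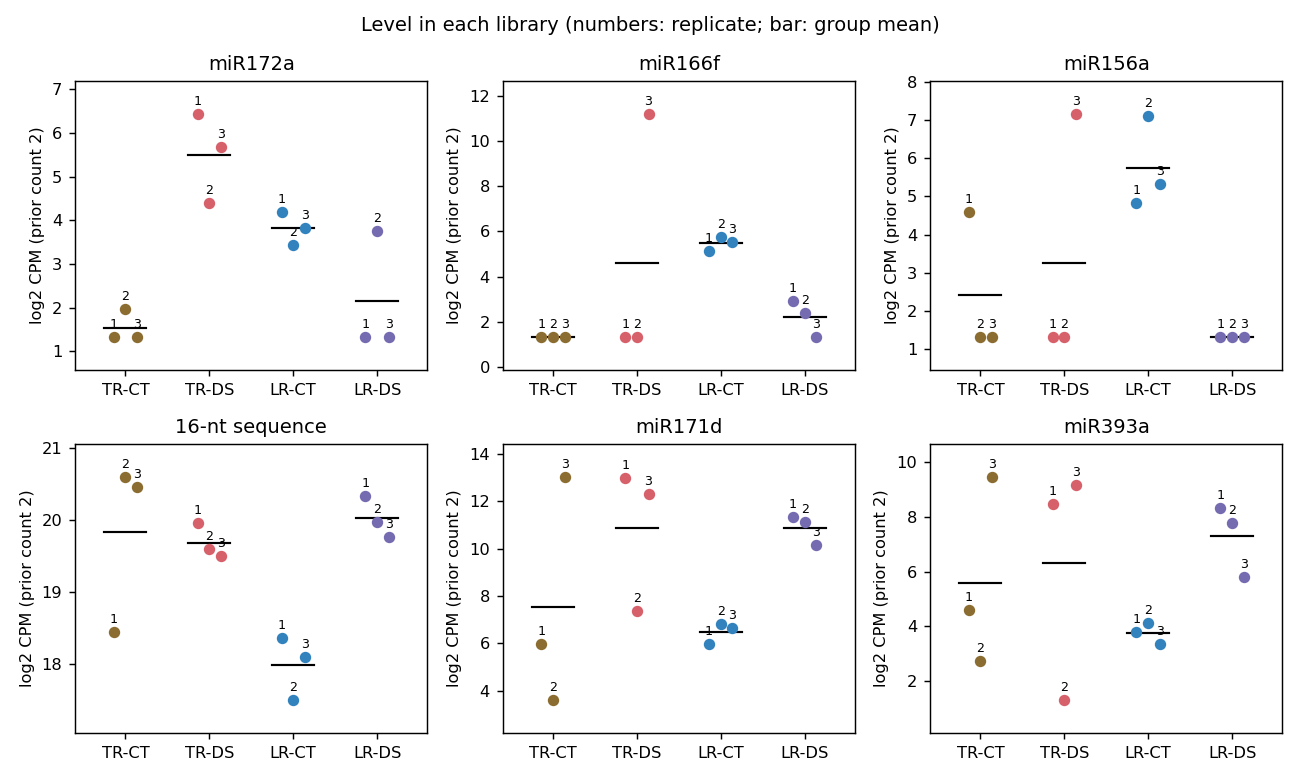
log2 CPM (vertical axes, prior count 2) of 6 miRNAs in each library, by group, with replicate numbers beside the points and bars for group means. miR172a is higher in all TR-DS than in all TR-CT libraries, miR166f and miR156a in TR-DS rest on replicate 3, and in miR171d and miR393a TR-CT replicate 3 and TR-DS replicate 2 stand apart from their groups. Both libraries were picked by miR171d and miR393a among others.

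miR166f had the lowest p of all. Members of miR166 target HD-ZIP III transcription factors, which pattern vascular tissue and meristems. The TR-CT libraries held 0, 0 and 0 counts of it, those of TR-DS 0, 0 and 2057. The LR-CT libraries held 45, 79 and 80, those of LR-DS 3, 2 and 0. The taproot side rests on TR-DS replicate 3 alone. In group means it was at least 133-fold higher against the floor of 3 counts per library, a bound that holds for the mean and not for the other 2 libraries. In lateral roots all 3 control libraries lay above all 3 drought libraries, with 204 counts against 5, a 12.6-fold lower level under drought (5.31 to 39.2 from counting error only). Against the floor the lateral root mean was at least 4.36-fold lower under drought. The interaction was -15.95 (SE 3.87, FDR = 0.0979). Without TR-DS replicate 3 it was -3.69 with an FDR of 1.00, and over all alternatives the FDR ran from 2.3e-05 to 1.00.

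miR156a, which represses SPL transcription factors and thereby keeps plants juvenile, showed a like pattern. In watered taproots it had 15, 0 and 0 counts, under drought 0, 0 and 123. Droughted lateral roots had 0, 0 and 0, against 36, 211 and 68 in the LR-CT libraries. In lateral roots its mean was at least 6.82-fold lower under drought against the floor of 3 counts per library. The interaction was -11.35 (SE 3.78, FDR = 0.202), and it was -3.09 without TR-DS replicate 3. The abundant member miR156b (173 to 1377 counts per library) had 0.57 (SE 0.88), which was 1.23 without both libraries and -0.90 with library size alone, and the third member, miR156c, had at most 18 counts in any library. The family sum, nearly all miR156b, gave 0.40 (SE 0.80).

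The 16-nt sequence was the single miRNA with a positive interaction at an unadjusted p of at most 0.05. It is shorter than the 18 to 30 nt for which the libraries were size-selected, and whether it is a miRNA was not tested. In watered lateral roots 60.7%, 34.1% and 47.9% of all counts were this sequence, and under drought 86.2%, 86.1% and 83.7%, so those groups did not overlap. In watered taproots 55.2%, 89.1% and 73.3% of all counts were this sequence, and under drought 72.6%, 83.4% and 74.5%, and the drought libraries lay inside the control range. The widest 95% Wilson interval of these shares was 83.5% to 83.9%, in LR-DS replicate 3, from counting error alone. The log2FC was 2.02 (SE 0.60) in lateral roots and -0.41 (SE 0.58) in taproots, and the interaction 2.42 (SE 0.83, FDR = 0.202). It ranged from 1.77 to 2.62 without single libraries and was 2.16 without both libraries set apart, but 0.76 with library size alone. A sequence of this share sets the scale of all others in library-size scaling, and with TMM factors computed without it the median interaction was 0.38 over the other 74.

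Of the 24 sequence-named miRNAs, 14 had an interaction above 0 and 10 below (58.7% above 0 over all 75 miRNAs). At an unadjusted p of at most 0.05 there were 2, beside 5 (6.67%) over all 75 miRNAs. For seq-ACUAUU the taproot libraries held 35, 25 and 18 counts when watered and 0, 26 and 12 under drought, and the lateral root libraries 89, 155 and 156 when watered and 2, 0 and 0 under drought. Lateral roots thus had 400 counts in controls against 2 under drought, a 61.7-fold lower level (17.0 to 512 from counting error only), while the taproot groups overlapped. Against the floor of 3 counts per library, the lateral root mean was at least 8.56-fold lower under drought. The interaction of seq-ACUAUU was -4.89 (SE 2.0, FDR = 0.378), and -3.40 without both libraries set apart. seq-UUUCAG had the same form, with 130, 272 and 223 counts in watered lateral roots against 1, 12 and 0 under drought, overlapping taproot groups and an interaction of -3.64 (SE 1.97), which was -1.60 without both. On the other side, seq-CGCAGA was higher in every LR-DS library after TMM scaling (67, 69 and 27 counts against 62, 100 and 113 before it). By library size alone its lateral root groups overlapped. The interaction of seq-CGCAGA was 2.10 (SE 1.15, and 2.36 without both).

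The pair of entries for seq-CUUCUG is instructive, since their sequences are identical over 20 bases. For seq-CUUCUG-1, counts of 761, 680 and 296 in watered taproots stood against 129, 203 and 158 under drought, without overlap after scaling. Counts of 789 to 812 in watered lateral roots stood against 200 to 280 under drought. After scaling these groups overlapped, at 448 to 572 CPM in LR-CT against 473, 275 and 1471 in LR-DS replicates 1 to 3. The log2FC in lateral roots was 0.53 (SE 0.69). Its interaction was 1.91 (SE 0.99, FDR = 0.656), and it ran from 0.60 to 2.30 when single libraries were left out. For seq-CUUCUG-2 the taproot libraries held 60, 74 and 0 counts when watered and 0, 5 and 0 under drought, and the lateral root libraries 100 to 266 and 0 to 7. Its interaction was 0.03, with effects of -4.02 in taproots and -4.0 in lateral roots. Without both libraries set apart its interaction was 5.44 (SE 2.42, FDR = 0.314). How the reads of 1 sequence were divided between both entries is not given in the sources used here, so neither value can be taken as that of the sequence.

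Of the 19 members of the meristem and root patterning families (miR164, miR166, miR171 and miR396), 12 had an interaction above 0 and 7 below, with a median of 0.60 and 1 at an unadjusted p of at most 0.05 (miR166f). Over all 75 miRNAs, 44 (58.7%) lay above 0 and 5 (6.67%) had such a p. With library size alone only 17 of the 75 lay above 0, so such counts by family role follow the scaling and are no result about the role. Within miR166 the members spanned 18.77 on the log2 scale, from miR166f to miR166c at 2.82 (SE 1.72). For miR166c the TR-CT libraries held 241, 591 and 6885 counts, those of TR-DS 3685, 520 and 1947. The LR-CT libraries held 727, 870 and 931, those of LR-DS 2720, 2405 and 167. Its lateral root groups did not overlap after scaling and its taproot groups did, and without both libraries set apart the interaction turned to -1.28. These libraries were picked by miR166c among others, so this turn follows in part from that choice. miR166e had 1.10 (SE 1.37), which turned to -0.51 with library size alone and to -1.31 without both.

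miR166b was lower under drought in both root types, the one miRNA that was separated in both. Watered taproots had 16899, 9975 and 20233 counts, droughted ones 2895, 2066 and 1132. Watered lateral roots had 28462, 39312 and 41070, droughted ones 7702, 8002 and 1572. Its log2FC was -2.54 (SE 0.76, FDR = 0.112) in taproots and -0.99 (SE 0.72) in lateral roots, with an interaction of 1.55 (SE 1.02, FDR = 0.656). That value was 0.67 without both libraries set apart, and ran from 0.78 (without TR-CT replicate 3) to 2.45 (without TR-DS replicate 1) when single libraries were left out. Summed over its 6 members, miR166 had an interaction of 0.18 (SE 1.13), which turned to -1.74 without both.

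In miR171, which targets GRAS-domain transcription factors of the shoot and root meristem, miR171d had the highest interaction, 3.82 (SE 2.25, FDR = 0.656). Watered lateral roots had 84, 172 and 175 counts, droughted ones 1521, 1624 and 172. After scaling it was higher in every LR-DS library, with 10.16 to 11.33 on the log2 CPM scale against 5.98 to 6.82. The TR-CT libraries held 41, 7 and 2804 counts, those of TR-DS 2115, 70 and 4435. On the log2 CPM scale TR-CT replicate 3, at 13.02, lay above all TR-DS libraries, and TR-DS replicate 2, at 7.36, lay between the other TR-CT libraries (5.96 and 3.62) and the other TR-DS libraries (12.97 and 12.29). miR171d made up 2.31% (95% Wilson interval 1.71% to 3.12%) and 0.56% (0.27% to 1.15%) of its family in TR-CT replicates 1 and 2 but 76.3% (74.9% to 77.7%) in replicate 3. It made up 86.4% (85.0% to 87.7%) and 92.0% (91.2% to 92.8%) in TR-DS replicates 1 and 3 but 11.2% (8.99% to 14%) in replicate 2. These shares need no scaling between libraries, but miR171d is among the 11 miRNAs by which both libraries were picked. Without TR-CT replicate 3 the interaction turned to -2.51, and without both libraries to -3.08.

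The abundant member miR171a had 1.87 (SE 1.14), which was 0.06 without LR-DS replicate 3. miR171c was lower under drought by nearly the same log2FC in both root types, -2.02 (SE 0.83) in taproots and -2.09 (SE 0.83) in lateral roots, with an interaction of -0.07 (95% interval -2.49 to 2.34). That value turned to 1.05 without both libraries, to 0.04 with TMM without the most abundant sequence and to 0.08 with a replicate block within root type.

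In miR164, whose targets are NAC genes of organ boundaries and lateral root development, the highest member was miR164c at 1.70 (SE 1.26). Its taproot groups did not overlap, with counts of 105, 48 and 21 when watered against 8, 12 and 19 under drought, while the lateral root groups did. The lowest member, miR164e, had -0.80 (SE 2.21, and -0.44 without both) at no more than 31 counts per library. miR164d had 0.23 (95% interval -2.07 to 2.52) and turned below 0 under all scalings tried except TMM without the most abundant sequence. In miR396, which represses growth-regulating factors, miR396a had -1.0 (SE 2.0) and miR396c 0.07 (SE 0.92). miR396a was -1.58 without both libraries set apart and turned to 6.26 without TR-DS replicate 3, the one TR-DS library in which it had counts (61). miR396c held 2502 counts or more in all libraries but LR-DS replicate 3 (489), and its value turned below 0 under most alternatives, down to -1.34 with library size alone, and was -1.06 without both.

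Of the 9 members of the auxin families, 7 had an interaction above 0 and 2 below (58.7% above 0 over all 75 miRNAs), with a median of 0.66. None had an unadjusted p of at most 0.05, beside 6.67% over all 75. miR393a, which represses the TIR1 and AFB auxin receptors, held 16, 23 and 14 counts in watered lateral roots and 189, 157 and 8 under drought, where LR-DS replicate 3 was higher only after scaling. The TR-CT libraries held 15, 3 and 236 counts, those of TR-DS 94, 0 and 508, and TR-DS replicate 2 lay below all TR-CT libraries. Like miR171d, miR393a is among the 11 miRNAs by which TR-CT replicate 3 and TR-DS replicate 2 were picked. A pattern like that of miR171d is therefore no separate evidence. Its interaction of 3.74 (SE 2.31) turned to -1.04 without both libraries. miR393b, at no more than 17 counts per library, had 2.09 (SE 2.39) and went the other way, to 6.73 (SE 3.11) without both.

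miR390a, which starts the production of trans-acting small RNAs against auxin response factors (ARFs), held 3879, 7068 and 7181 counts in watered lateral roots against 951, 809 and 296 under drought, without overlap after scaling. Watered taproots had 1573, 972 and 145 counts, droughted ones 311, 754 and 600, with overlap. The log2FC was -1.27 (SE 0.66) in lateral roots and -0.18 (SE 0.65) in taproots, and the interaction -1.09 (SE 0.93, FDR = 0.824). It was -0.29 without both libraries set apart, and ran from -1.95 (without TR-CT replicate 1) to -0.66 (without TR-CT replicate 3) when single libraries were left out. miR390b had 0.33 (95% interval -1.47 to 2.13), and it lay below 0 with library size alone (-0.80) and with RLE factors (-0.12). For miR160 and miR167, which target ARFs directly, miR160a had 1.52 (SE 1.93), miR160c 0.36 (SE 1.68), miR167a -0.61 (SE 0.84) and miR167b 0.80 (SE 1.25). Both miR160c and miR167b turned below 0 with library size alone, to -0.64 and -0.70. Without both libraries miR160c was 0.17, miR167a -0.37 and miR167b -1.28, where miR167b is among the miRNAs by which the libraries were picked.

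The MYB and TCP regulators miR159 and miR319, which are related in sequence, were below 0 in both root types. For miR159a, the most abundant known miRNA, the TR-CT libraries held 77106, 35047 and 28870 counts, those of TR-DS 18800, 14446 and 40973. The LR-CT libraries held 90222, 254418 and 220435, those of LR-DS 26050, 24458 and 4370, and the lateral root groups did not overlap. The log2FC was -1.71 (SE 0.57, FDR = 0.188) in lateral roots and -0.71 (SE 0.56) in taproots, and the interaction -1.0 (SE 0.79, FDR = 0.760), between -1.61 and -0.67 without single libraries. miR319a had -0.06 (SE 1.10), with -1.75 in lateral roots and -1.69 in taproots, and turned to 0.72 without both libraries and to 0.13 with TMM without the most abundant sequence.

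Of the 3 miRNAs that act on the small RNA machinery, 1 had an interaction above 0. miR162a, whose target is DICER-LIKE1, held 1806, 2968 and 3243 counts in watered lateral roots against 4361, 4972 and 355 under drought. It was higher in every LR-DS library after TMM scaling, whereas by library size alone these groups overlapped. The TR-CT libraries held 1685, 1556 and 10361 counts, those of TR-DS 5563, 948 and 14430. TR-CT replicate 3 and TR-DS replicate 2 were picked by miR162a among others, so their crossing over here is no separate evidence. The interaction was 1.57 (SE 1.38) and turned to -1.28 without both libraries and to -0.19 with library size alone. miR168a (ARGONAUTE1) and miR403a (ARGONAUTE2) had -0.39 (95% interval -2.21 to 1.43) and -0.17 (-2.15 to 1.80), which were -1.14 and -0.86 without both libraries.

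Of the 10 miRNAs tied to copper, sulfate and phosphate status, 7 were above 0 and 3 below (58.7% above 0 over all 75 miRNAs). None had an unadjusted p of at most 0.05, beside 6.67% over all 75. miR408a, a regulator of copper proteins, had 0.35 (SE 0.73) in taproots and -0.49 (SE 0.73) in lateral roots, with overlapping groups in both and an interaction of -0.84 (SE 1.03). It was -2.02 (SE 0.90, FDR = 0.314) without both libraries. miR398b, which targets copper/zinc superoxide dismutases, had 0.70 (SE 1.28), which turned to -1.10 with library size alone and to -1.75 without both. Of the 6 members of miR395, a regulator of sulfate uptake, miR395b was highest at 4.71 (SE 2.53) and miR395e lowest at -0.41 (SE 2.10). The LR-CT libraries held 2, 1 and 0 counts of miR395b, those of LR-DS 7, 19 and 0, so LR-DS replicate 3 held none. The ratio was 28.1-fold (8.60 to 145 from counting error only), and against the floor of 3 counts per library the LR-DS mean was at least 6.61-fold higher. The interaction of miR395b was 2.27 without TR-CT replicate 3 and 1.73 without both libraries set apart, and that of miR395e was -0.81 without both, -5.81 without LR-DS replicate 1 and 0.22 without LR-DS replicate 2. miR2111a, which moves from shoots to roots in legumes, held 11, 45 and 33 counts in watered lateral roots and none under drought, at least 1.89-fold lower in the mean. Its interaction of -5.87 (SE 3.20) was -0.95 without TR-DS replicate 2, in which lay the 6 counts of the TR-DS group.

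**Figure D4:**
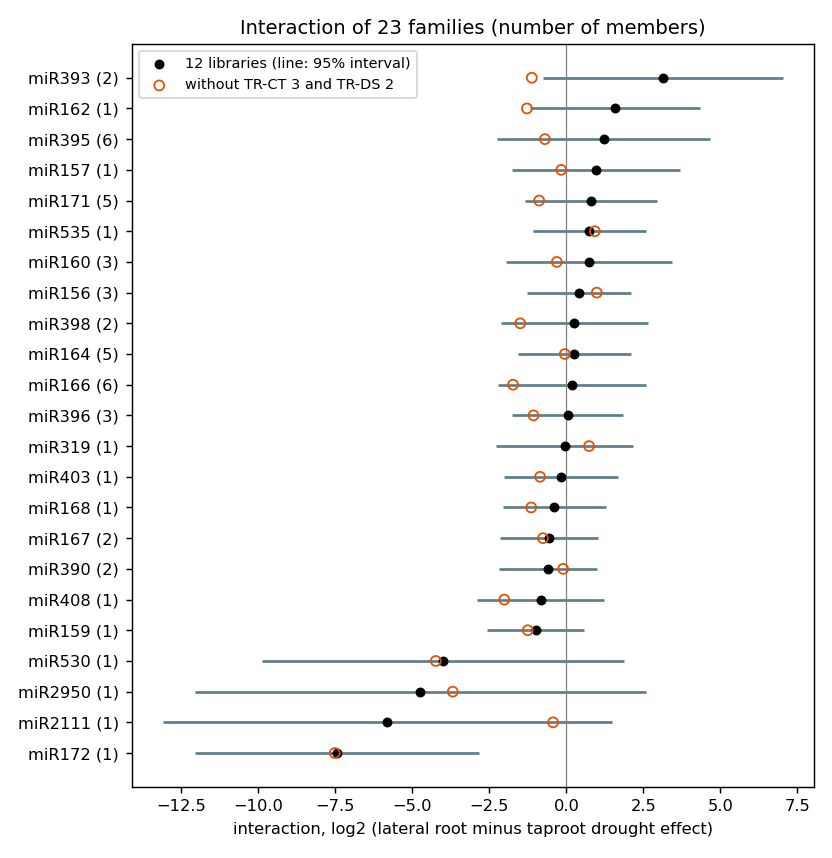
Interaction (horizontal axis, log2) of the 23 known families, with the number of members in brackets, over all 12 libraries (filled points, with 95% intervals) and without TR-CT replicate 3 and TR-DS replicate 2 (open points). The interval of miR172 is the one that lies apart from 0, and that of miR393 spans -0.75 to 7.04.

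Summed by family, the interaction was above 0 for 12 of the 23 families and below 0 for 11, with a median of 0.04 (55.3% above 0 among the 47 families and sequence-named miRNAs). None of the 47 families and sequence-named miRNAs passed FDR 0.05 (0% called). At an unadjusted p of at most 0.05 there were 3 (6.38%), of which miR172 was the only known family. edgeR's likelihood ratio test called 2 of the 47 and DESeq2 called 1, miR172. The next lowest p belonged to miR393 (3.14, SE 1.84), miR2111 (-5.81, SE 3.40), miR530 (-4.01, SE 2.78) and miR2950 (-4.74, SE 3.41), each with an FDR of at least 0.639. miR393 turned to -1.12 without both libraries set apart, and miR530 to 2.78 without TR-DS replicate 3, which held all 42 of its TR-DS counts. miR2950 had 8 to 11 counts in LR-CT and none in LR-DS, both at a level that does not allow a bound. Other families lay between -1.0 and 1.57. Without both libraries 11 of the 23 families turned direction, 10 of the 12 above 0 and 1 of the 11 below, among them miR162 (to -1.28), miR171 (to -0.89), miR395 (to -0.70), miR396 (to -1.07) and miR398 (to -1.50). Of the families that turned, miR160, miR162, miR164, miR166, miR171, miR319, miR393 and miR396 hold miRNAs by which the libraries were picked. Their turns therefore follow in part from that choice. The others, miR157, miR395 and miR398, hold none.

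Without both libraries the sign of the interaction changed for 26 of all 75 miRNAs, of which 17 of 44 went from above to below 0 and 9 of 31 the other way. These counts include the miRNAs by which the libraries were picked, and among the 40 miRNAs outside the drought profile the sign changed for 12. The Spearman correlation across miRNAs between the taproot and the lateral root effects was 0.44 over 12 libraries, as a description of miRNAs that share libraries and scaling.

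**Figure D5:**
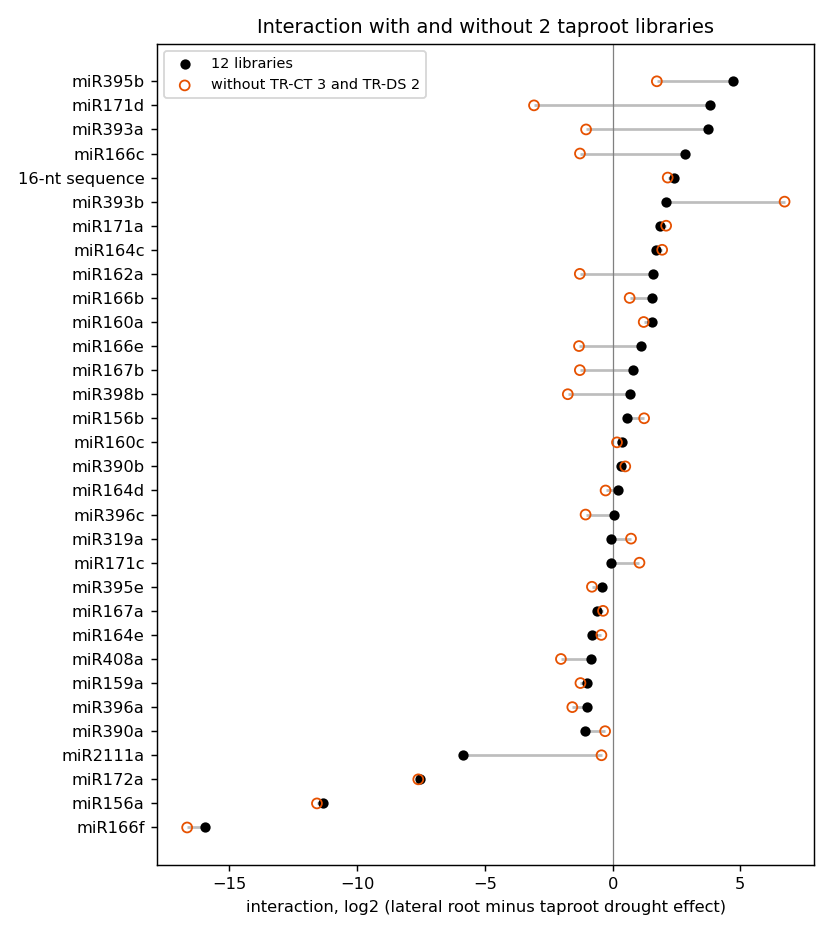
Interaction (horizontal axis, log2) of most known miRNAs named in the text and of the 16-nt sequence over all 12 libraries (filled) and without TR-CT replicate 3 and TR-DS replicate 2 (open). miR172a, miR156a, miR166f and the 16-nt sequence stay close to their values, whereas miR171d moves from 3.82 to -3.08 and miR166c from 2.82 to -1.28. All of these but miR172a are members of the profile by which the libraries were picked. The values of miR166f and miR156a rest on TR-DS replicate 3, which is kept here, and are -3.69 and -3.09 without it.

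Of the 9 known miRNAs chosen for opposite directions in the study (miR172a, miR408a, miR396a, miR390a, miR167a, miR398b, miR164d, miR171a and miR166e), 1 had an unadjusted p of at most 0.05 for the interaction, miR172a. With TMM factors over the 12 libraries, opposite signs were found in miR172a, miR408a, miR171a and miR166e. Only in miR172a did the difference exceed its error by more than 2 SE. In miR396a, miR390a, miR167a, miR164d and miR398b both effects were below 0, at -0.13, -0.18, -0.40, -0.53 and -0.71 in taproots. TMM factors within each root type moved the interaction by a median of -0.60, so the signs of small effects can depend on the scaling. They are no test of the directions in the study. The 8 other than miR172a had interactions between -1.09 and 1.87 and FDRs of at least 0.656.

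The precision of the interaction limits what these libraries can show. Its SE had a median of 1.40, and of 72 intervals that could be computed, 67 included 0. No interval lay within 2 log2 units on both sides of 0, and 19 lay within 3. The intervals whose farther end lay closest to 0 belonged to miR396c (-1.91 to 2.04), miR390b, miR403a and miR168a. The median SE was 2.39 for the 18 miRNAs with fewer than 300 counts in all, 1.57 for the 24 with 300 to 3000, and 1.02 for the 33 above 3000. An interaction of miRNAs without a call was thus not detected at this depth and spread, and equal effects were not shown.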

How the data were processed

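Small RNAs of 12 libraries were counted by the authors. Per the methods text they selected RNAs of 18 to 30 nt, trimmed reads with Cutadapt to a minimum of 15 nt, checked them with FastQC and mapped and quantified them with Bowtie and ShortStack against miRBase sequences, and deposited raw read counts for each mature miRNA. No versions are given in the sources used here. All 12 columns were used.

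All miRNAs with at least 1 count entered edgeR 4.0.16 (R 4.3.3), with TMM factors over 12 libraries, 1 mean per group, the quasi-likelihood F test and Benjamini-Hochberg adjustment over all 75 miRNAs or over 47 families and sequence-named miRNAs, at FDR 0.05. Family counts were summed on the same scaling. An SE is the size of the log2 value over the root of its F statistic. Log2 CPM used a prior count of 2, the floor was 3 counts per library, and intervals are at 95% (Wilson for shares, exact for ratios of counts). They cover counting error only, since reads carry no molecular identifiers. A fitted log2FC of a miRNA at 0 in a group depends on the fit and is no bound.

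The text names the 12 miRNAs with the lowest p, the 9 that the paper names as opposite in both root types, the highest and lowest member of each family of 3 or more, the most abundant sequence and the 5 families with the lowest p. miR162a, miR166b, miR159a, miR319a, miR390b, miR167b, miR393a, miR393b, the 4 miRNAs whose intervals had their farther end closest to 0, miR156c and seq-CUUCUG-2 were added after their values were seen. Members and lists were chosen with earlier results of these data known. Alternatives were other scalings (library size, RLE, TMM within root types, TMM without the most abundant sequence), DESeq2 1.42.0, the likelihood ratio test, 2 stricter count filters, a threshold of 0.1, replicate blocks and leaving out libraries. Plots were made in Python 3.11.15 with matplotlib 3.10.9. Gene expression and degradome data were not analysed here.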

Additional observations from a re-analysis of the deposited data

How the results depend on the processing

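Over 42 named results and 1028 alternative values, 899 kept their direction and side of the threshold, 15 newly passed it and 114 turned direction. Over 12 libraries no named result had a call to lose. The miRNAs at FDR 0.05 for the interaction, 0 in edgeR's quasi-likelihood test (5 at an unadjusted p of at most 0.05), numbered 3 in the likelihood ratio test, 1 each in DESeq2, with library size alone, with TMM without the most abundant sequence, at a threshold of 0.1, with a replicate block within root type and without both TR-CT replicate 3 and TR-DS replicate 2, and 0 to 1 without single libraries (1, miR166f, without TR-DS replicate 1 or TR-DS replicate 2). The families numbered 2 in the likelihood ratio test, 1 in DESeq2, 1 without both libraries and 0 to 1 without single libraries (1, miR172 at -12.40, without LR-DS replicate 2). Drought calls in lateral roots, 0 over 12 libraries, numbered 3 (DESeq2), 1 (likelihood ratio test), 2 (library size alone), 10 (replicate block within root type), 14 (without both libraries), 18 (without these and LR-DS replicate 3) and 0 to 1 without single libraries. Those in taproots numbered 1, 4, 1, 2, 19, 30 and 0 to 1 in the same order.

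Calls gained were miR166f with library size alone (-17.05), with TMM without the most abundant sequence (-15.25), in the likelihood ratio test (-16.05), at a threshold of 0.1 (-15.95), with a replicate block within root type (-14.88) and without both libraries (-16.65). miR172a (-7.51 and -8.08) and the miR172 family (-7.44 and -7.93) were called in the likelihood ratio test and in DESeq2, the family also without both libraries (-7.52), and miR156a (-11.36) in the likelihood ratio test.

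Values that turned direction are grouped by setting. With library size alone, these were miR398b (-1.10), miR164d (-0.98), miR166e (-0.51), miR156b (-0.90), miR160c (-0.64), miR396c (-1.34), miR162a (-0.19), miR390b (-0.80), miR167b (-0.70) and seq-CUUCUG-2 (-1.20). With RLE factors, these were miR398b (-0.076), miR164d (-0.29), miR160c (-0.30), miR396c (-0.50), miR390b (-0.12) and seq-CUUCUG-2 (-0.29). With TMM within each root type, these were miR398b (-0.091), miR164d (-0.38), miR160c (-0.21), miR396c (-0.56), miR390b (-0.23) and seq-CUUCUG-2 (-0.53). In DESeq2, these were miR398b (-0.076), miR164d (-0.28), miR160c (-0.30), miR396c (-0.50), miR390b (-0.12) and seq-CUUCUG-2 (-0.31). With TMM without the most abundant sequence, these were miR171c (0.044) and miR319a (0.13). With the filterByExpr filter, these were miR164d (-0.17), miR160c (-0.11), miR396c (-0.26) and seq-CUUCUG-2 (-0.043). With at least 10 counts in each library, these were miR396c (-0.13). In the likelihood ratio test, these were seq-CUUCUG-2 (-0.019). Without both TR-CT replicate 3 and TR-DS replicate 2, these were miR171d (-3.08), miR398b (-1.75), miR164d (-0.27), miR166e (-1.31), miR166c (-1.28), miR171c (1.05), miR396c (-1.06), miR162a (-1.28), miR393a (-1.04), miR319a (0.72), miR167b (-1.28) and miR393 (family) (-1.12). Without these and LR-DS replicate 3, these were miR171d (-2.97), miR398b (-1.72), miR166e (-1.0), miR160c (-0.18), miR166c (-0.63), miR171c (1.2), miR396c (-0.85), miR162a (-0.95), miR393a (-0.91), miR319a (0.89), miR167b (-1.28) and miR393 (family) (-1.09).

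Without single libraries, the values that turned at least once ranged as follows: miR171d -2.51 to 4.58, miR396a -1.92 to 6.26, miR398b -1.38 to 1.25, miR164d -0.41 to 0.58, miR166e -0.80 to 2.00, miR160c -0.46 to 1.10, miR164e -3.09 to 0.72, miR166c -0.79 to 4.58, miR171c -1.23 to 0.66, miR395e -5.81 to 0.22, miR396c -0.71 to 0.41, miR162a -0.78 to 2.08, miR393a -0.46 to 4.56, miR319a -1.42 to 0.39, miR390b -0.33 to 0.61, miR167b -0.79 to 1.29, seq-CUUCUG-2 -0.73 to 4.76 (5.98 without TR-CT replicate 3, TR-DS replicate 2 and LR-DS replicate 3), miR393 (family) -0.56 to 3.94 and miR530 (family) -7.41 to 2.78 (-7.63 without the same libraries). miR171d, miR166c, miR393a, miR162a, miR167b, miR166e, miR398b and the miR393 family turned without TR-CT replicate 3 alone. Of these, miR171d, miR166c, miR393a, miR162a and miR167b are among the miRNAs by which that library was picked. The cause of none of these turns was tested.

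Whether replicate numbers pair control with drought libraries within a root type was not settled, as 3 libraries per group are too few to tell. Whether same-numbered taproot and lateral root libraries of a treatment came from the same seedlings is not given by the titles. That pairing was not examined on its own, and only the block over all groups joins such libraries. Deviations of same-numbered TR-CT and TR-DS libraries correlated at -0.29, 0.68 and 0.32, and those of different numbers at -0.66 to 0.43. For LR-CT and LR-DS, same-numbered libraries gave -0.23, -0.06 and -0.02, and different numbers -0.125 to 0.21. A replicate block within root type gave 1 call for the interaction and turned miR396a (1.09), miR398b (-0.055), miR171c (0.079) and miR396c (-0.083), and a block over all groups gave 0 calls and turned seq-CUUCUG-2 (-1.33). The 160039 counts of LR-DS replicate 3 and the spread among taproot libraries limit the interaction, and miRNAs under 300 counts in all had a median SE of 2.39. Leaving out both libraries, or these and LR-DS replicate 3, was chosen after seeing the data, and as the taproot libraries were picked by a drought profile, the rise in taproot calls follows in part from that choice.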
